A study of Mus musculus with 6 samples.

Results

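Brain endothelial and barrier genes were followed in the dorsal hippocampus of mice given an antisense oligonucleotide (ASO) against Snhg11, a long non-coding RNA gene. The 10 genes were chosen by name, as known markers of the endothelial cells that line brain capillaries: Cldn5, Cdh5, Pecam1 and Ly6c1 at cell junctions and the cell surface, Slco1a4, Abcb1a and Mfsd2a among transporters, and Flt1, Kdr and Tek among receptors for vascular growth factors. They are 10 of the 55401 gene identifiers counted, and all 10 were among the 19969 genes that passed the filter on low counts. Bulk RNA-seq covered 6 samples, 3 labelled as control ASO and 3 as Snhg11 knockdown. All came from WT animals, in the study's methods WT littermates of Ts65Dn mice aged 4 months. Each received 50 μg of ASO per hemisphere by injection into both dorsal dentate gyri, and the dorsal hippocampus was taken 3 days later. Control-ASO was a scrambled oligonucleotide of the same length, so both groups carried an injection and an ASO of the same chemistry. No uninjected group was analysed here, and the ASO acts on any cell that takes it up, not on endothelial cells alone.

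Brain capillaries are lined by endothelial cells that form the blood-brain barrier. Tight junctions seal the gaps between neighbouring cells, efflux pumps return drugs and xenobiotics to the blood, and carriers bring nutrients such as glucose, amino acids and essential lipids into the tissue. Signals of the VEGF and angiopoietin families govern the growth and stability of these vessels, and Wnt signals from the brain induce and keep the barrier state.

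None of the 10 genes passed the threshold between the groups in edgeR's quasi-likelihood test, adjusted by Benjamini-Hochberg. Of the 10, 5 had a positive fitted log2 fold change and 5 a negative one, and their median was 0.03, beside 0.01 over all genes tested. Without Control-ASO replicate 1 that median was 0.20, and without Snhg11-ASO replicate 1 it was 0.06. What the 10 genes shared was the place of Snhg11-ASO replicate 1, which held the highest level of Cldn5, Cdh5, Pecam1, Mfsd2a and Flt1 among the 6 samples and the lowest level of Slco1a4, Abcb1a, Tek, Kdr and Ly6c1. Snhg11-ASO replicates 2 and 3 stayed near the controls. Over all genes tested, this sample was highest in 33.3%, lowest in 32.5% and one or the other in 65.8%, so extreme values there were common and not particular to endothelial genes.

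Promoter sequences are shown first for members on either side of that split, since the same sample was high for Cldn5 and Flt1 and low for Slco1a4, Tek and Kdr. RefSeq (GRCm38.p6) promoters were found for 8 of the 10 genes, with no entry for Pecam1 and Cdh5. Each sequence runs 5′ to 3′ on the gene's own strand over the 250 bases before the RefSeq start. Capitals mark GGAA, the core that ETS factors bind, or TTCC, the same core on the other strand. ETS factors such as Erg and Fli1 are known regulators of endothelial genes. The Cldn5 window is chr16:18776597-18776846 (plus strand), Flt1 chr5:147726012-147726261 (minus), Slco1a4 chr6:141856221-141856470 (minus), Tek chr4:94739039-94739288 (plus) and Kdr chr5:75978456-75978705 (minus).
Cldn5: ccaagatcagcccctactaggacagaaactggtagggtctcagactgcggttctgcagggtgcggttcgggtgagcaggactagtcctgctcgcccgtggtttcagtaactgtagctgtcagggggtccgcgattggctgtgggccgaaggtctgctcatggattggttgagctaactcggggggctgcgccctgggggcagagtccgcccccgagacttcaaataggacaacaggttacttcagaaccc
Flt1: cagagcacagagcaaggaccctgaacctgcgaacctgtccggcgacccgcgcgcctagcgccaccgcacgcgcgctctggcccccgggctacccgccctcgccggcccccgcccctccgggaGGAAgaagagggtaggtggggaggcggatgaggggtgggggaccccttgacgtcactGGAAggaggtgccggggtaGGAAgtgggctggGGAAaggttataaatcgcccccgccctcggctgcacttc
Slco1a4: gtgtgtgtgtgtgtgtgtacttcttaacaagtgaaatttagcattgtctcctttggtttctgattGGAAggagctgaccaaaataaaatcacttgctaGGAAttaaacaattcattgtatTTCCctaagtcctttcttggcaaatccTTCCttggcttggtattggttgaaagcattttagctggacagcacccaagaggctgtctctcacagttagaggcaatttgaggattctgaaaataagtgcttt
Tek: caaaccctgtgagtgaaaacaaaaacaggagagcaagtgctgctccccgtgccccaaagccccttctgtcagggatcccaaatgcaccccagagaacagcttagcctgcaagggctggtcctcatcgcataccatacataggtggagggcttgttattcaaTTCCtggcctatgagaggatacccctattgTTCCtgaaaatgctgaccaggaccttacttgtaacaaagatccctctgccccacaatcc
Kdr: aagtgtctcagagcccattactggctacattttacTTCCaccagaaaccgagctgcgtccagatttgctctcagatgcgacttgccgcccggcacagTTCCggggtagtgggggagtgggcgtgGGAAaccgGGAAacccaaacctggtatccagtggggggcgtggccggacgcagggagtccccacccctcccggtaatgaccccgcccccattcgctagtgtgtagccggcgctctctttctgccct

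The core occurred 4 times in the Flt1, Slco1a4 and Kdr windows, 2 times in Tek and Mfsd2a, 5 times in Abcb1a and 0 times in Cldn5. The Abcb1a window (chr5:8566841-8567090, plus strand) lies far upstream of the GENCODE start of the counted gene, 8660077. Ly6c1 has 2 RefSeq starts, with 4 and 6 matches. Of 32817 promoter windows of this length, 93.4% held at least 1 match on either strand, with a median of 3, so a match here is the usual case. The Flt1 window held 3 matches of GGGCGG, a GC box read on both strands, and the Kdr window held 2. That motif was found in 32.7% of all windows and 0 times in the Slco1a4 and Tek windows. The Cldn5 window held 1. GC content was 59.6% in the Cldn5 window and 70.4% in that of Flt1, and 39.2%, 51.2% and 61.6% in those of Slco1a4, Tek and Kdr, so the 2 sides overlapped.

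Cldn5 encodes claudin-5, the main tight junction protein of brain capillaries, and is a single-exon gene on the plus strand of chromosome 16 (GRCm38, 18776847 to 18778262). Its level, in CPM (counts relative to the library total, scaled by library composition), was 16.6, 17.7 and 10.9 in Control-ASO replicates 1, 2 and 3 and 22.8, 16.5 and 15.7 in Snhg11-ASO replicates 1, 2 and 3. Control-ASO replicate 3 was the low sample and Snhg11-ASO replicate 1 the high one, and the other 4 lay close together. The log2 fold change was 0.28 with a standard error (SE) of 0.23 (adjusted p = 0.775, from the quasi-likelihood test of edgeR, adjusted by Benjamini-Hochberg, as for every adjusted p unless DESeq2 is named).

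Cdh5 encodes VE-cadherin, the adhesion molecule of endothelial adherens junctions, and lies on the plus strand of chromosome 8 (104101625 to 104144511, 13 exonic blocks). Its controls measured 8.33, 7.91 and 8.61 CPM and its Snhg11-ASO samples 20.8, 8.71 and 8.73 CPM. Every Snhg11-ASO sample lay above every control, yet replicates 2 and 3 did so by a small margin, and replicate 1 alone was 2.51 times the control mean. The fitted log2 fold change of 0.62 (SE 0.35, adjusted p = 0.690) became 0.07 (SE 0.11) without that sample. An exact two-sided permutation test of the CPM gave p = 0.1, the smallest that 3 against 3 samples allow. Cdh5 was the 1 member whose groups did not overlap, beside 7.73% of all genes tested that were higher in every Snhg11-ASO sample and 7.7% that were lower in every one.

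Pecam1 (PECAM-1 or CD31, an adhesion molecule at endothelial contacts that is also found on platelets and leukocytes) followed the same profile as Cdh5. It lies on the minus strand of chromosome 11 (106654217 to 106750628). The controls held 13.1, 10.3 and 13.4 CPM and the Snhg11-ASO samples 25.6, 13.8 and 13.3 CPM. Replicate 1 was 2.08 times the control mean, replicate 2 just above the control range and replicate 3 inside it. The log2 fold change was 0.52 (SE 0.28, adjusted p = 0.682), and 0.14 (SE 0.14) without replicate 1.

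Ly6c1, a small lipid-anchored surface protein abundant on brain endothelium, had the smallest fitted difference of the 10. Its controls measured 12.5, 13.2 and 16.6 CPM and its Snhg11-ASO samples 11.7, 15.4 and 14.6 CPM, with the groups interleaved. Its log2 fold change was -0.02 (SE 0.17, adjusted p = 0.980), and its 95% interval ran from -0.43 to 0.38. The sign turned when either Snhg11-ASO replicate 1 (0.09) or Control-ASO replicate 3 (0.11) was left out.

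Reads of Ly6c1 are hard to tell from those of its neighbour Ly6c2, a marker of monocytes and some T cells. The coding sequences of the 2 genes are 396 bases long each, including the stop codon, and differ at 9 bases (97.7% identical), with an identical run of 188 bases. A stretch of 100 coding bases from 1 exon shows how few positions carry the difference. Both sequences read 5′ to 3′ on the minus strand of GRCm38, from chr15:75045471-75045570 for Ly6c1 and chr15:75108612-75108711 for Ly6c2, and capitals mark the 2 positions that differ.
Ly6c1: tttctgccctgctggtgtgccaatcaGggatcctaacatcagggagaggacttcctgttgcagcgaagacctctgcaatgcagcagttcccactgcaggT
Ly6c2: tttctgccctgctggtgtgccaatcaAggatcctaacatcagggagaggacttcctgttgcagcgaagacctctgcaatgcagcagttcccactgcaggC

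Of the 50-base windows of Ly6c1 transcripts, as long as 1 read, 32.8% occurred identically in another gene, most often Ly6c2. The share was 22.5% for Abcb1a, most often in Abcb1b, and at most 1.61% for the other 8 genes, with 0 such windows in Cldn5, Mfsd2a, Tek, Kdr and Cdh5. Pairs that map to more than 1 place were not counted, so Ly6c1 and Abcb1a counts are the less certain ones. Ly6c2 itself measured 0.306, 0.535 and 0.564 CPM in the controls and 2.88, 1.60 and 1.79 CPM in the Snhg11-ASO samples. All 3 Snhg11-ASO samples were above all 3 controls. The fitted log2 fold change was 2.14 (SE 0.37) with an adjusted p of 0.308 by edgeR and 8.92e-04 by DESeq2. Ly6c2 thus passed the threshold with DESeq2 and not with edgeR, and its level stayed far below that of Ly6c1 in every sample. Without Snhg11-ASO replicate 1, DESeq2 gave no adjusted p for it and edgeR gave a log2 fold change of 1.84.

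Slco1a4 encodes Oatp1a4, an organic anion transporter of the brain endothelial membranes, on the minus strand of chromosome 6 (141805440 to 141856199, 17 exonic blocks). The controls were tight at 49.97, 44.7 and 47.7 CPM, whereas the Snhg11-ASO samples gave 17.2, 40.1 and 48.7 CPM. Replicate 1 was at 36.3% of the control mean, replicate 2 somewhat below the controls and replicate 3 within their range. The groups differed by a log2 fold change of -0.42 (SE 0.34, adjusted p = 0.773), and -0.09 (SE 0.11) without replicate 1.

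Abcb1a, which encodes P-glycoprotein, the chief drug efflux pump of the barrier, gave the same picture. Its controls held 24.9, 23.2 and 20.9 CPM and its Snhg11-ASO samples 10.99, 20.6 and 23.0 CPM. Replicate 1 was at 47.8% of the control mean and the other Snhg11-ASO samples were near the controls. Its log2 fold change of -0.34 (SE 0.27, adjusted p = 0.770) became -0.08 (SE 0.11) without that sample. Its paralog Abcb1b, on the same chromosome, went the other way in replicate 1, with 5.78, 6.72 and 7.66 CPM in the controls and 13.2, 7.04 and 7.51 CPM in the Snhg11-ASO samples (log2 fold change 0.46, SE 0.28, adjusted p = 0.707). Of the remaining paralogs, Ly6a measured 5.88 to 15.8 CPM in the controls and 10.2 to 20.6 CPM in the Snhg11-ASO samples (log2 fold change 0.59, SE 0.39), Slco1a5 stayed under 1 CPM in every sample, Slco1a6 had at most 0.0680 CPM, and Slco1a1 had 0 counts in all 6.

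Mfsd2a, the carrier of lysophosphatidylcholine-bound docosahexaenoic acid that also restrains transcytosis, lies on the minus strand of chromosome 4 (122946850 to 122961188). Its controls measured 12.7, 10.5 and 13.3 CPM and its Snhg11-ASO samples 22.8, 10.3 and 10.3 CPM. Replicate 1 was above every control and replicates 2 and 3 just below every control. Its log2 fold change was therefore 0.25 (SE 0.33, adjusted p = 0.858) with all samples and -0.23 (SE 0.13) without replicate 1.

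Flt1 and Kdr encode the VEGF receptors 1 and 2, of which Kdr carries most of the growth signal and Flt1 largely acts as a decoy. Flt1 was spread widely within both groups, at 53.4, 38.1 and 29.8 CPM in the controls and 63.2, 34.2 and 31.4 CPM in the Snhg11-ASO samples. Kdr had 16.9, 11.7 and 8.94 CPM in the controls and 8.21, 14.1 and 11.8 CPM in the Snhg11-ASO samples. Control-ASO replicate 1 was the highest sample for Kdr and the highest control for Flt1, while Snhg11-ASO replicate 1 was highest for Flt1 and lowest for Kdr. The log2 fold changes were 0.09 (SE 0.32, adjusted p = 0.957) for Flt1 and -0.14 (SE 0.29, adjusted p = 0.913) for Kdr. Both changed sign without Snhg11-ASO replicate 1, to -0.30 and 0.05. Flt1 also turned negative without Control-ASO replicate 3 (-0.10), and Kdr positive without Control-ASO replicate 1 (0.13).

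Tek encodes Tie2, the angiopoietin receptor that keeps vessels quiescent, on the plus strand of chromosome 4 (94739289 to 94874976). Its levels were 12.1, 13.4 and 13.0 CPM in the controls and 4.41, 13.7 and 14.0 CPM in the Snhg11-ASO samples. Replicate 1 was at 34.4% of the control mean, the farthest below it of the 10 genes, while replicates 2 and 3 were slightly above every control. With all samples, the log2 fold change was -0.26 (SE 0.40, adjusted p = 0.884), and it was 0.11 (SE 0.10) without replicate 1.

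**Figure D1:**
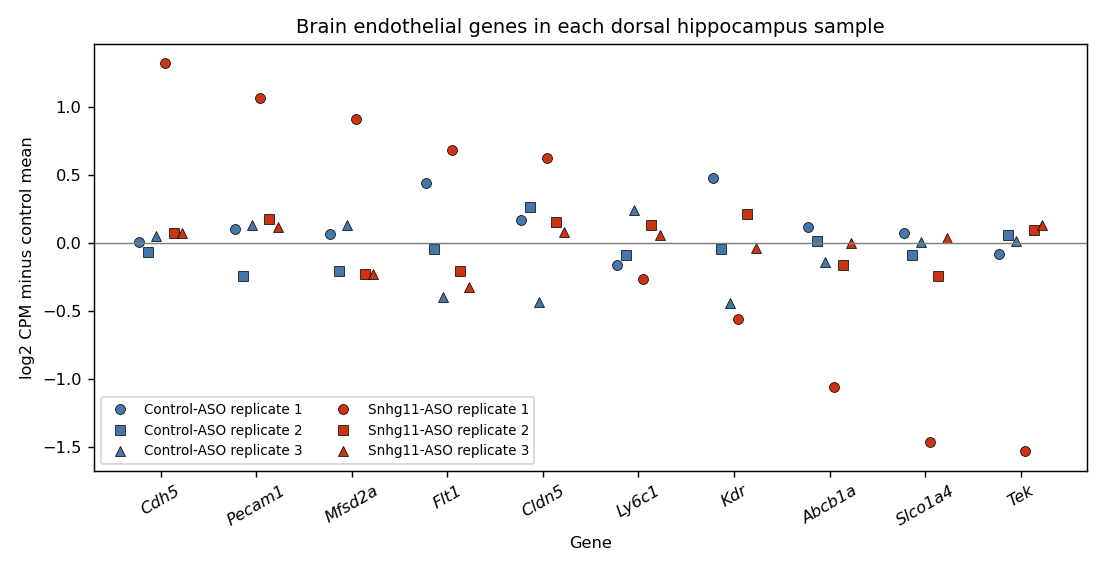
Log2 CPM of each of the 10 genes in each sample minus the mean of the 3 controls, with genes ordered by the value in Snhg11-ASO replicate 1; blue marks Control-ASO, red Snhg11-ASO, and the shape the replicate. Snhg11-ASO replicate 1 (red circle) lies outside the other 5 samples in all 10 genes, above them in 5 and below them in 5.

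Of the 10 genes, 0 passed an adjusted p of 0.05 with edgeR, beside 0% of all 19969 genes, and 0 had an unadjusted p under 0.05, beside 8.11% (1619 genes). With DESeq2, 0 of the 10 passed, beside 1.29% (258 genes). Over the 21 alternative fits the smallest adjusted p of any member was 0.363. The 95% intervals of the log2 fold change still reached from -1.23 to 0.38 for Slco1a4, from -1.20 to 0.69 for Tek and from -0.21 to 1.45 for Cdh5, so a 2-fold difference, a log2 value of 1 in size, still lay inside those intervals. The narrowest interval was that of Ly6c1, given above. The study's methods give 3 injected mice per group, while the labels do not tie a numbered sample to a mouse.

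**Figure D2:**
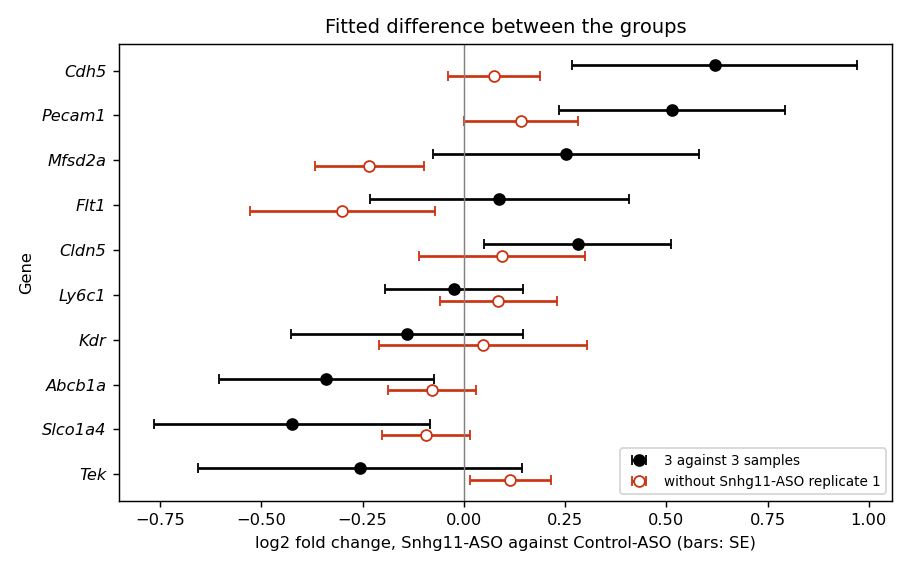
Log2 fold change of Snhg11-ASO against Control-ASO for each gene, with bars of 1 SE, from all 6 samples (black, filled) and without Snhg11-ASO replicate 1 (red, open). Without that sample, Cdh5 moved from 0.62 to 0.07 and Slco1a4 from -0.42 to -0.09, and Tek, Kdr, Ly6c1, Mfsd2a and Flt1 changed sign.

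The size of this departure can be read against the other samples. The median absolute deviation from the control mean over the 10 genes was 0.99 on the log2 scale in Snhg11-ASO replicate 1, against 0.17 and 0.08 in Snhg11-ASO replicates 2 and 3. Over all genes tested the same median was 0.39 in replicate 1 and 0.15 and 0.18 in replicates 2 and 3. All 10 members had their highest or lowest value in that sample, while each other sample was an extreme in 1 to 3 of them. The median SD of log2 CPM over the members was 0.20 in Control-ASO and 0.56 in Snhg11-ASO, and over all genes 0.17 and 0.27.

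The sum of all 10 genes, which adds members high and low in that sample, was 208 CPM in Snhg11-ASO replicate 1, 187 and 192 CPM in replicates 2 and 3 and 183 to 221 CPM in the controls. Every Snhg11-ASO sum thus lay within the control range. In bulk tissue, the number of endothelial cells and the RNA per endothelial cell cannot be told apart.

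Among the 10 genes, base composition moved with the split. The longest transcripts of the 5 genes highest in Snhg11-ASO replicate 1 had a GC content of 50.2% to 60.5%, and those of the 5 lowest 40.3% to 49.6%, without overlap. Across the 10 genes, Spearman's correlation of GC content with the deviation of that sample was 0.78 (n = 10 genes that share the same libraries), and across 19945 genes it was 0.06. Of the 3 properties computed, this value was the largest in size over the 10 genes, with -0.18 for exonic length and -0.22 for genomic span. A correction for GC content in the fit left the sign of every member's log2 fold change as it was. That correction follows the trend over all genes tested, so it cannot decide the part of GC content in the split of these 10. The other vascular genes set by name did not divide by GC content without overlap. Snhg11-ASO replicate 1 was lowest for Tie1 (57.6%) and Sox18 (60.9%) and highest for Slc16a1 (42.9%) and Fzd4 (47.0%). Others followed the split, such as Esam (53.7%, highest) and Jam2 (45.8%, lowest). The part of base composition in the split was not tested.

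Levels can be compared between genes only per length. In RPKM (CPM divided by the exonic length in kilobases), Cldn5 was highest in the controls at 10.7 ± 2.57 (SD, n = 3), followed by Ly6c1 at 8.42 ± 1.31, Slco1a4 at 7.40 ± 0.412 and Mfsd2a at 5.40 ± 0.663. Abcb1a (4.20 ± 0.371), Flt1 (2.99 ± 0.886) and Tek (2.72 ± 0.138) came next, then Pecam1 (1.97 ± 0.278), Cdh5 (1.97 ± 0.0842) and Kdr (1.39 ± 0.447). Claudin-5, Ly6c1 and the 3 transporters thus held the top 5 places and the receptors lower ones, with a range of 7.68-fold from Kdr to Cldn5. Neighbours in this order overlapped in their control samples, with 4 exceptions: Slco1a4 above Mfsd2a, Mfsd2a above Abcb1a, Tek above Pecam1 and, by a hair, Cdh5 above Kdr.

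In the Snhg11-ASO samples the means were 12.9 ± 2.76 RPKM for Cldn5, 8.28 ± 1.16 for Ly6c1, 6.44 ± 3.21 for Mfsd2a and 5.51 ± 2.54 for Slco1a4. The mean of Slco1a4 came below that of Mfsd2a through replicate 1 alone (2.68 against 10.1 RPKM). Replicates 2 and 3 kept the order of the controls, with 6.26 and 7.595 RPKM for Slco1a4 and 4.58 and 4.59 RPKM for Mfsd2a. Cldn5 ranked at percentile 82.7 of 19945 genes by control RPKM and Kdr at percentile 35.2. Tek, Pecam1 and Cdh5 also lay below the middle, at percentiles 49.6, 42.5 and 42.5. These markers of a cell type that makes up a small part of the tissue thus ran from below the middle into the upper range.

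**Figure D3:**
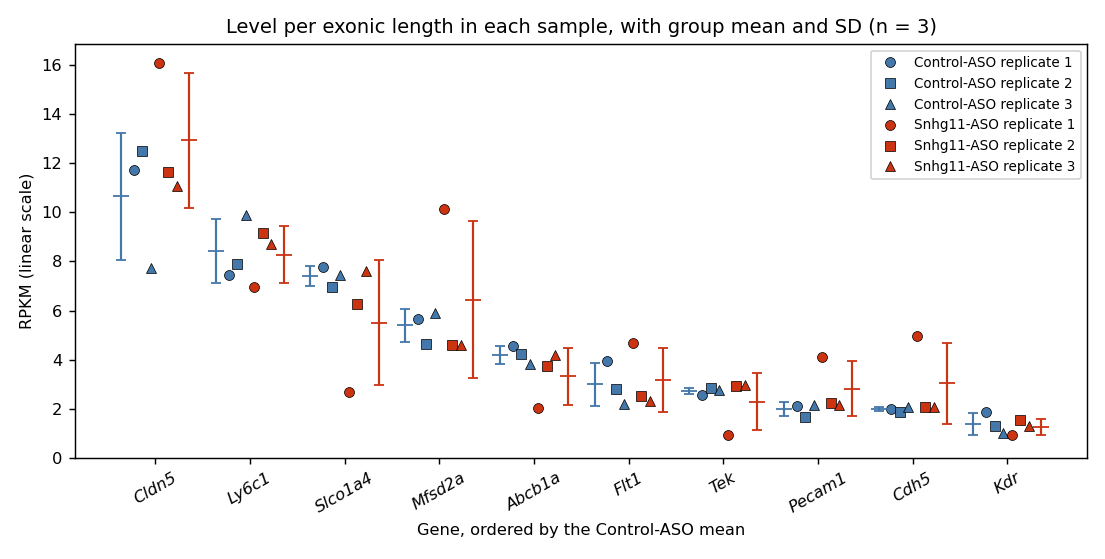
RPKM of each gene in each sample on a linear axis from 0, ordered by the Control-ASO mean; crossbars and bars give the group mean and SD (n = 3). The Snhg11-ASO bars of Slco1a4, Mfsd2a, Tek and Cdh5 are wide because replicate 1 stands apart, while their controls lie close together.

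The targeted RNA bears on how the groups are read. Snhg11 measured 551, 436 and 209 CPM in the controls and 139, 65.4 and 69.4 CPM in the Snhg11-ASO samples. All Snhg11-ASO samples were below all controls, but Control-ASO replicate 3 held less than the other controls, and Snhg11-ASO replicate 1 more than the others of its group. The log2 fold change was -2.13 (SE 0.43, adjusted p = 0.395 by edgeR, exact two-sided permutation p = 0.1), and DESeq2 called it (adjusted p = 6.25e-05). The mean of the Snhg11-ASO group was 22.9% of the control mean. Sequencing depth was 28951250 to 43997537 counted read pairs per sample on the reverse strand, and members held 168 to 2411 of these each.

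Other genes of the same pathways were followed in lists set by function, with earlier results of these data known. None of the listed genes passed the threshold with edgeR. Pooled here were 6 endothelial lists: junctions, barrier transporters, vascular growth signalling, transcription factors, other markers, and activation and leakage. The Wnt list was left out of this pool. The 6 lists held 126 genes, of which 122 were tested. Of these, 11 had an unadjusted p under 0.05 by edgeR, beside 8.11% of all genes tested, and 1 passed with DESeq2, beside 1.29%. Junction genes (17 listed, 15 tested) split into 7 higher and 8 lower, with a median log2 fold change of -0.06 beside 0.01 for all genes. Ocln (occludin) measured 14.4, 11.8 and 11.5 CPM in the controls and 11.96, 14.1 and 12.6 CPM in the Snhg11-ASO samples. Tjp1 (ZO-1), the scaffold that ties tight junctions to actin, gave a log2 fold change of 0.07 (SE 0.11). Esam, an endothelial junction molecule, had 10.1, 7.76 and 7.24 CPM in the controls and 16.5, 9.81 and 9.78 CPM in the Snhg11-ASO samples, and Jam2 had its lowest value, 15.1 CPM, in Snhg11-ASO replicate 1. Over the 15 junction genes, Snhg11-ASO replicate 1 was the highest sample for 6, Esam among them, and the lowest for 1, Jam2, beside 33.3% and 32.5% of all genes tested.

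Carriers and pumps of the barrier (18 tested) divided into 8 higher and 10 lower, with a median of -0.02. Slc2a1 (GLUT1, the glucose carrier) was at 42.2, 35.3 and 36.3 CPM in the controls and 85.5, 36.9 and 39.0 CPM in the Snhg11-ASO samples, high in replicate 1 alone. Slco1c1, the thyroxine transporter, was at 50.2, 39.6 and 37.1 CPM in the controls and 14.8, 34.9 and 35.7 CPM in the Snhg11-ASO samples, all of them below every control (log2 fold change -0.57, SE 0.33, adjusted p = 0.693). Snhg11-ASO replicate 1 was the highest sample for 8 of the 18 carriers and the lowest for 7, beside 33.3% and 32.5% of all genes tested. Slc16a1 (MCT1, for lactate and ketones) had a difference that did not rest on that sample. It had 42.4, 57.3 and 39.5 CPM in the controls and 67.1, 62.2 and 60.4 CPM in the Snhg11-ASO samples, with a log2 fold change of 0.45 (SE 0.15, adjusted p = 0.551) and of 0.40 without replicate 1. Slc7a5 (LAT1), Abcg2 (BCRP), Slc22a8 and Slc38a5 had log2 fold changes of 0.26, 0.04, -0.44 and -0.25, with SE of 0.27, 0.14, 0.28 and 0.71.

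Genes of VEGF, angiopoietin, BMP and Notch signalling (27 tested) counted 16 higher and 11 lower (median 0.10, and -0.03 without Snhg11-ASO replicate 1). The ligand Vegfa measured 26.3, 20.8 and 21.7 CPM in the controls and 24.4, 18.0 and 17.1 CPM in the Snhg11-ASO samples. Angpt2, which opposes Angpt1 at the Tek receptor, was at 1.60, 0.505 and 1.13 CPM in the controls and 8.18, 1.03 and 0.733 CPM in the Snhg11-ASO samples, so its log2 fold change of 1.62 (SE 0.96) came from replicate 1 and was -0.28 without it. Angpt1, the ligand that activates Tek, was lowest in that same sample at 5.22 CPM, against 9.55 to 13.0 CPM in the controls. Tie1 and Ptprb, partners of Tek at the membrane, had log2 fold changes of -0.25 (SE 0.21) and 0.06 (SE 0.13). For Pgf, a ligand of Flt1, the value was 0.32 (SE 0.22), and for Eng (endoglin) 0.38 (SE 0.30).

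The Wnt genes that induce the barrier (15 tested) were 8 higher and 7 lower, with a median of 0.03. Snhg11-ASO replicate 1 was the highest sample for 5 of the 15 and the lowest for 8, beside 33.3% and 32.5% of all genes tested. The receptor Fzd4 was at 26.7 CPM in that sample, against 7.88 to 17.4 CPM in the controls. Its coactivators Adgra2 (GPR124), also highest there, and Reck had log2 fold changes of 0.22 and -0.14. The Wnt targets Lef1 and Apcdd1, both lowest in that sample, had log2 fold changes of -0.56 (SE 0.27) and 0.03 (SE 0.23). Endothelial transcription factors (17 tested) were 13 higher and 4 lower, but their median was 0.08, and 0.00 without replicate 1. Erg measured 5.32 CPM in that sample and 2.45 to 2.92 CPM in the other 5, whereas Sox17 measured 0.918 CPM there and 2.02 to 3.21 CPM elsewhere. Of the 17 factors, that sample was the highest for 9 and the lowest for 5, beside 33.3% and 32.5% of all genes tested. The listed factors thus went both ways there, more often up, and bulk tissue does not show which cells made them. Sox18, Foxq1 and Foxf2 had log2 fold changes of -0.23, -0.11 and 0.27. Other endothelial markers (30 listed, 29 tested) were 16 higher and 13 lower, with a median of 0.11.

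Genes listed for endothelial activation and leakage stood out by count. That list was chosen with earlier results of these data known, so the count describes it and is not a test. In bulk tissue, the cells that made these RNAs cannot be told apart. All 16 tested of the 17 listed had a positive log2 fold change, beside 10316 of the 19969 genes tested, with a median of 0.66, but 12 of them were highest in Snhg11-ASO replicate 1, and without it 11 were higher and 5 lower, with a median of 0.26. The summed level was 138 to 161 CPM in the controls, 452 CPM in Snhg11-ASO replicate 1 and 178 and 179 CPM in the others. Icam1, the leukocyte adhesion molecule, had 3.88, 4.43 and 4.78 CPM in the controls and 11.02, 5.26 and 5.70 CPM in the Snhg11-ASO samples, with no overlap (log2 fold change 0.75, SE 0.31, adjusted p = 0.609). Plvap, a protein of leaky, fenestrated vessels that mature brain capillaries lack, had 3.33, 5.35 and 3.12 CPM in the controls and 6.45, 5.79 and 4.54 CPM in the Snhg11-ASO samples. Vcam1 and Selp had log2 fold changes of 0.09 (SE 0.16) and 0.59 (SE 0.92). Vwf, counted with the other endothelial markers, had 46.3 CPM in replicate 1 and 14.0 to 25.1 CPM elsewhere.

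In that list, Socs3 and Cav1 were chosen for mention after their values were seen. Socs3, a feedback inhibitor of cytokine signalling, was at 80.7 CPM in Snhg11-ASO replicate 1, 6.53 and 6.55 CPM in replicates 2 and 3 and 2.91 to 4.997 CPM in the controls. Cav1, the caveolae protein, was above every control in all 3 samples, with 9.65, 14.8 and 11.6 CPM in the controls and 19.4, 18.6 and 22.2 CPM in the Snhg11-ASO samples. The log2 fold change of Cav1 was 0.74 (SE 0.18, adjusted p = 0.465 by edgeR and 0.0280 by DESeq2), and it was the 1 gene of the list that passed with DESeq2. For Socs3, DESeq2 gave no adjusted p.

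**Figure D4:**
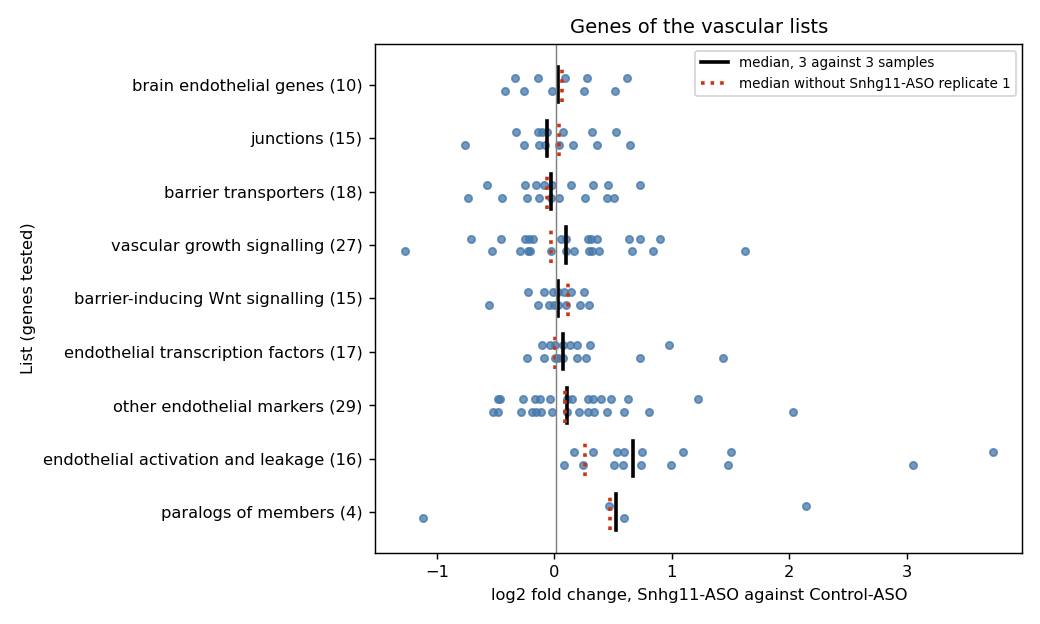
Log2 fold change of each tested gene of the vascular lists (points), with the list median from all samples (black line) and without Snhg11-ASO replicate 1 (red dotted line); the grey line is the median of all genes, 0.01. The list of activation and leakage genes has its median at 0.66, and at 0.26 without that sample, while the other lists of endothelial genes have medians between -0.06 and 0.11.

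Markers of other cells were read beside these results. Snhg11-ASO replicate 1 departed in several of them. Leukocyte and macrophage markers (12 listed) summed to 102 CPM there and to 38.7 to 51.4 CPM elsewhere, with the neutrophil gene S100a8 (chosen after its values were seen) at 22.3 CPM there and 0.0297 to 1.05 CPM elsewhere. Microglial markers summed to 211 CPM there and to 309 to 667 CPM elsewhere, astrocyte markers to 4222 CPM against 4825 to 7161 CPM, and proliferation markers to 7.89 CPM against 16.8 to 37.7 CPM. Oligodendrocyte markers (8 tested, median 0.29) were all higher, beside 10316 of the 19969 genes tested. They summed to 1660 CPM in Snhg11-ASO replicate 1 and to 1593 to 3609 CPM elsewhere. That sample was the lowest for 6 of the 8, and their median was 0.61 without it. Neuronal markers, which define the tissue, were close in sum, at 4246 CPM in that sample and 4199 to 4947 CPM elsewhere. Of the 10 neuronal markers, 8 were lower and 2 higher (median -0.10). In 2 of them every Snhg11-ASO sample was below every control, beside 7.7% of all genes tested. Snhg11-ASO replicate 1 was the highest sample for 1 and the lowest for 4, beside 33.3% and 32.5% of all genes tested. None of the genes in these lists was at 0 in all 6 samples. The part of other cells in the endothelial values was not tested.

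Mural cells wrap the same vessels. Pericyte markers (12 tested) were 7 higher and 5 lower with a median of 0.09. Among these 12, Snhg11-ASO replicate 1 was the highest sample for 5 and the lowest for 6, beside 33.3% and 32.5% of all genes tested. The split of that sample was thus seen in pericyte markers too. Pdgfrb, the receptor that recruits pericytes, was at 20.9, 18.7 and 19.3 CPM in the controls and 24.5, 18.7 and 21 CPM in the Snhg11-ASO samples, and Rgs5 had a log2 fold change of -0.05 (SE 0.16). Smooth muscle markers were higher in 8 of 8, beside 10316 of the 19969 genes tested. Their median was 0.39, and 0.40 without replicate 1. In 3 of the 8 every Snhg11-ASO sample was above every control, beside 7.73% of all genes tested. The sum of the 8 markers was 33.8 to 45.4 CPM in the controls and 51.9 to 56.4 CPM in the Snhg11-ASO samples. Acta2 (smooth muscle actin) had 6.66, 3.12 and 5.94 CPM in the controls and 8.16, 6.99 and 7.24 CPM in the Snhg11-ASO samples (log2 fold change 0.51, SE 0.29, adjusted p = 0.689). Tagln (transgelin), named after its values were seen, had 3.64, 3.21 and 3.71 CPM in the controls and 8.42, 7.01 and 6.71 CPM in the Snhg11-ASO samples. It passed with DESeq2 (adjusted p = 6.28e-05) but not with edgeR (0.308). It was the 1 gene of these 8 that passed with DESeq2, beside 1.29% of all genes tested.

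Choroid plexus, whose vessels are fenestrated, varied between samples of both groups. Its 12 markers summed to 2017, 43.4 and 1315 CPM in the controls and 1369, 138 and 78.0 CPM in the Snhg11-ASO samples, so that Control-ASO replicates 1 and 3 and Snhg11-ASO replicate 1 were the high ones. Fibroblast and meningeal markers were 1 higher and 9 lower (median -0.46), beside 10316 higher and 9653 lower over all genes tested. Their sums were 37.3 to 117 CPM in the controls and 53.8 to 65.0 CPM in the Snhg11-ASO samples. Red blood cell genes summed to 41.9 to 55.2 CPM in the controls and 58.5 to 99.7 CPM in the Snhg11-ASO samples, higher in every one of the latter. The groups overlapped when each of the 5 genes counted equally. The mean of log2 CPM minus the control mean was -0.29 to 0.30 in the controls and 0.03 to 0.77 in the Snhg11-ASO samples.

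**Figure D5:**
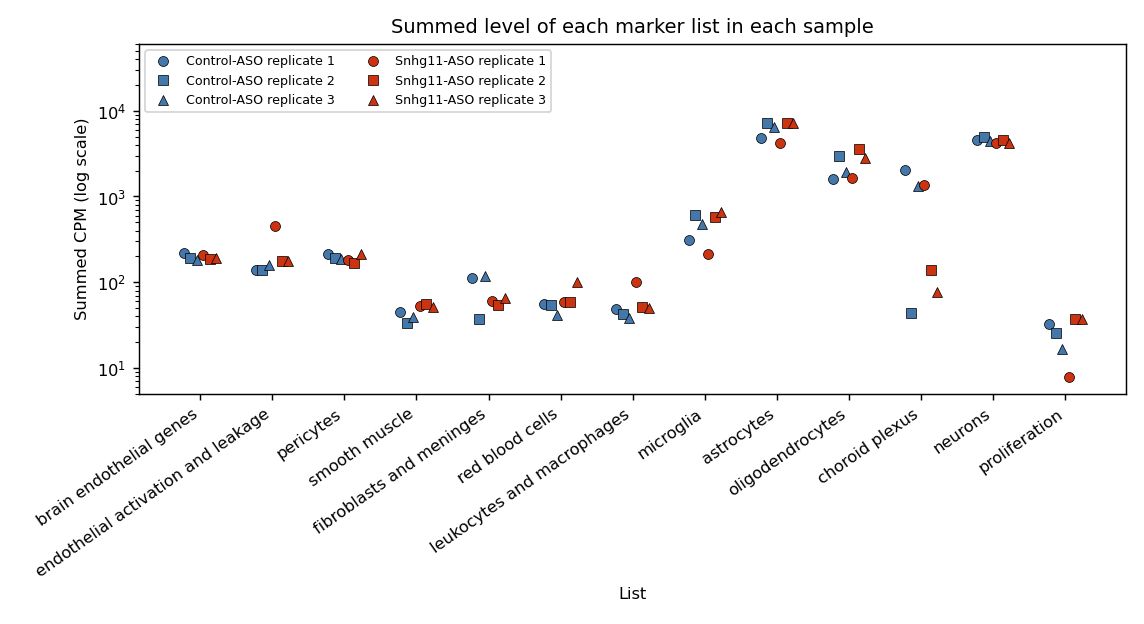
Summed CPM of each marker list in each sample on a log axis; blue marks Control-ASO, red Snhg11-ASO, and the shape the replicate. The sum of the 10 endothelial genes lies between 183 and 221 CPM, while Snhg11-ASO replicate 1 (red circle) is highest for activation genes and leukocytes and lowest for microglia, astrocytes and proliferation.

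The genes whose log2 CPM over the 6 samples was most like the mean of the 10 members were Zfp235 (Pearson r = 0.998), Gm45501 (0.974), Dele1 (0.970), Slc22a5 (0.962) and Zmym3 (0.961), among 16277 genes of at least 1 CPM on average. That mean profile was nearly flat, from -0.08 in Control-ASO replicate 3 to 0.12 in Control-ASO replicate 1, since members high and low in Snhg11-ASO replicate 1 offset each other there (-0.02). None of these 5 genes was on an endothelial list, and the likeness rests on small differences in 6 samples.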

How the data were processed

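Dorsal hippocampus RNA from 3 Control-ASO and 3 Snhg11-ASO samples was sequenced as 50-base read pairs from ribosomal RNA-depleted, stranded libraries. The authors aligned the reads with STAR 2.5.2a to mm10 and deposited raw counts of read pairs per gene, not normalized. The files are in the format STAR writes, although the study's methods name another counter. Reverse-strand counts were used (96.2% to 96.8% of stranded pairs). Summary lines naming no gene (43.5% to 51.4% of pairs) were left out. Such counting drops pairs that map to several places or to several genes, which lowers counts of near-identical copies.

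Names, positions and lengths came from GENCODE M21 (GRCm38), which matched 55141 of 55401 identifiers. GC content was taken from the longest reference transcript of each gene. Genes were filtered with filterByExpr (minimum count 10), scaled with TMM factors and tested with edgeR 4.0.16 (R 4.3.3) by the quasi-likelihood test over all 19969 genes, with Benjamini-Hochberg adjustment at 0.05. CPM used TMM-scaled totals and RPKM the merged exonic length. Log2 CPM used a prior count of 2. SE was the size of the log2 fold change over the square root of F, and 95% intervals used 6.99 degrees of freedom. DESeq2 1.42.0, which the study used on 2 against 3 samples without naming the sample it removed, was an alternative. In all, 21 alternative fits were run, of which 3 were added after seeing the data. The code was tested on simulated data.

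The members and lists were chosen with earlier results of these data known. Named genes are the 10 members, Snhg11, their paralogs, 36 vascular genes set by name, any listed gene past the threshold and the 5 genes of most similar profile. Some listed genes enter the counts and sums but are not reported here by name. The main fit was unpaired. Same-numbered samples deviated together (correlations 0.297, 0.179 and 0.104), so a fit with the replicate number as a block was an alternative. The check does not single out these pairs, since Control-ASO replicate 2 and Snhg11-ASO replicate 3 correlated at 0.188, and no label says what a number marks.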

Additional observations from a re-analysis of the deposited data

How the results depend on the processing

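No gene of the 10 passed the threshold in any of the 21 alternative fits, and no fit that kept all 6 samples changed the sign of any member. The count of genes past the threshold over the whole table was 0 with edgeR in every fit that kept all samples, whatever the normalization, strand or filter, and 258 with DESeq2. In the fits that left out samples it ran from 0 to 347, the highest value with DESeq2 and without Snhg11-ASO replicate 1, while edgeR without that sample gave 2. The median log2 fold change of the members ran from -0.012 to 0.20 over the same fits, with the highest value without Control-ASO replicate 1. The cause of these differences was not tested.

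Sign changes of single genes came with left-out samples, except that Apcdd1 also turned negative with genomic span offsets (-0.013) and with these offsets and the replicate block (-0.034). Over the fits that left out samples, the log2 fold change of members ran from -0.30 to 0.33 for Flt1, from -0.11 to 0.11 for Ly6c1, from -0.24 to 0.45 for Mfsd2a, from -0.50 to 0.11 for Tek and from -0.34 to 0.32 for Kdr. Of the other named genes, those that changed sign were Ocln (-0.031 to 0.20), Jam2 (-0.38 to 0.15), Slc2a1 (-0.00196 to 0.71), Slc7a5 (-0.083 to 0.41), Abcg2 (-0.092 to 0.13), Slc38a5 (-0.62 to 0.26), Angpt1 (-0.43 to 0.064), Angpt2 (-0.29 to 2.10), Ptprb (-0.063 to 0.16), Eng (-0.035 to 0.55), Fzd4 (-0.35 to 0.58), Apcdd1 (-0.10 to 0.26), Erg (-0.15 to 0.50), Sox17 (-0.29 to 0.43), Sox18 (-0.44 to 0.058), Foxf2 (-0.00118 to 0.56), Vcam1 (-0.028 to 0.27), Selp (-0.052 to 1.001), Rgs5 (-0.22 to 0.096) and S100a8 (-1.48 to 5.14), with their lowest and highest values given. Over 210 member values under an alternative, 18 changed sign, in every case with a sample left out. Pairing the samples by number with a replicate block gave 0 genes past the threshold and a member median of 0.02, and changed no call.

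Limits: with 3 samples in each group, an exact permutation test cannot go below p = 0.1, and the fitted difference of 8 of the 10 genes was smaller in size without Snhg11-ASO replicate 1. Each member had at least 168 counts in every sample, and Ly6c1 and Abcb1a share sequence with near copies. Of levels per length, only that of Tek moved by more than its control SD under other settings, to 3.12 RPKM when both strands were counted.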
